A study of Drosophila melanogaster with 2 samples.

Results

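The ionotropic receptors (Ir genes) of Drosophila melanogaster are a family of chemosensory receptors, and 66 of the 19391 loci in the deposited expression table belong to it. They were chosen as every locus whose gene name in the deposited annotation begins with Ir and a digit. Of these, 60 are annotated as protein-coding and 6 as pseudogenes. The study held 1 library of females and 1 of males, here called females and males, each made from polyadenylated RNA of whole adults aged 3 to 5 days. RNA of 192 inbred, wild-derived lines (the Drosophila Genetic Reference Panel, DGRP) was pooled for each sex, with 200 ng from each line. The 2 groups carried no other treatment and were raised alike. With 1 pooled library per sex there was no replicate, so no difference has an error or a p-value, and each describes these 2 libraries.

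Ionotropic receptors are related to the glutamate receptors of synapses but bind odours, tastants and other stimuli, and some of them serve the sensing of temperature and humidity. A channel is built from a tuning receptor, found in few neurons, and a co-receptor shared by many neurons. The family is expressed in sensory neurons of the antenna, mouthparts, legs and wings, which make up a small part of the RNA of a whole fly. In whole-body RNA, fewer cells of a type and less RNA per cell cannot be told apart.

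Receptor genes were low in both libraries and, at a minimum of 0.1 FPKM, were detected more often in males. At least 0.1 FPKM (fragments scaled to transcript length and to the size of the library) was listed for 20 of the 66 genes (30.3%) in females and 41 (62.1%) in males. Among all loci the same minimum was reached by 70.3% in females and 90.6% in males. Both libraries reached it for 17 receptor genes, the female library alone for 3 and the male library alone for 24. The remaining 22 stayed below it in both libraries, with no value over 0.0943 FPKM. Of all loci, 68.4% reached it in both, 1.92% in females alone, 22.2% in males alone and 7.5% in neither. A level of 1 FPKM was reached by 5 receptor genes in females and 12 in males, against 52.5% and 70.8% of all loci. The median receptor had 0.0413 FPKM in females and 0.162 FPKM in males.

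**Figure D1:**
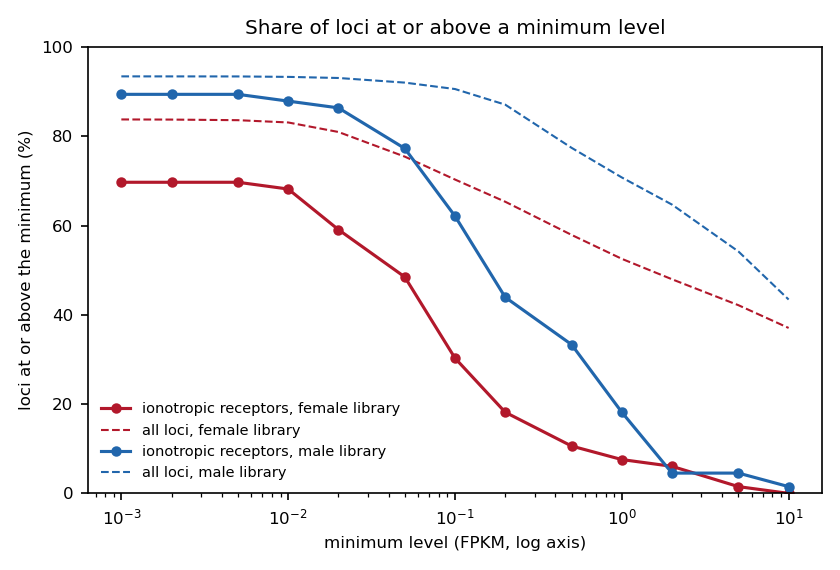
Share of loci (vertical axis, percent) at or above a minimum level (horizontal axis, FPKM, log axis), for the 66 ionotropic receptor genes (solid lines with points) and all 19391 loci (dashed lines), in females (red) and the male library (blue). At 0.1 FPKM the receptors stand at 30.3% in females and 62.1% in males, and at every minimum drawn they lie below all loci of the same library.

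A few genes held most of the family's signal. The summed level of the 66 genes was 25.8 FPKM in females and 49.4 FPKM in males. The 4 highest genes made up 71.0% of the female sum and 55.7% of the male sum. In the female library they were Ir7c, Ir76a, Ir62a and Ir75d, and in males Ir94d, Ir62a, Ir76a and Ir51b. Of these genes all but Ir7c overlap another locus in exon or span, as described further on. The part of those loci in the sums was not tested. The 43 receptors that overlap no other locus summed to 9.89 FPKM in females and 13.2 FPKM in males. Even the highest receptors were of middling level, since Ir7c lay at the 59.4th percentile of all loci in females and Ir94d at the 62.2nd percentile in males. An exact 0 stood for 20 genes in females and 7 in males, with 6 in both. A listed 0 is not taken as absence. Ratios of genes at 0 in a library rest on the 0.1 FPKM added to each value, and they enter counts, medians and plots but are not given for single genes in the text.

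Of the 3 co-receptors, Ir25a was the highest and Ir8a the lowest in both libraries. Ir25a, the most broadly used co-receptor, had 0.492 FPKM in females and 1.33 FPKM in males. The difference is given here as a log2 ratio of female over male after 0.1 FPKM was added to each value, so a negative ratio means lower in females, and low genes are drawn toward 0. It was −1.28 for Ir25a, and −1.71 for Ir76b, which had 0.188 FPKM in females and 0.847 FPKM in males. Ir76b serves olfactory neurons that sense amines and taste neurons that sense salts and amino acids. Ir8a, the partner of acid-sensing receptors, had 0.0539 FPKM in females and 0.162 FPKM in males, a log2 ratio of −0.77. All 3 were lower in females as deposited, and with neuronal markers set equal, as described further on, Ir25a turned to 0.25, Ir76b stayed at −0.29 and Ir8a no longer reached 0.1 FPKM in either library. None of them shares exon sequence with another locus. They lie on 3 arms, Ir25a on 2L from 4830846 to 4835300, Ir76b on 3L from 20101584 to 20104634 and Ir8a on X from 9126759 to 9130618, in coordinates of the deposited annotation (BDGP5 per the submitters' processing notes).

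The other members were described as 14 receptors known from the antenna, here called antennal receptors, and 49 further genes, the divergent receptors, many of which are known from taste organs. At least 0.1 FPKM was reached in females by 7 of the 14 antennal receptors and 11 of the 49 divergent receptors. In the male library it was reached by 13 antennal and 25 divergent receptors. The median antennal receptor had 0.116 FPKM in females and 0.576 FPKM in males, and the median divergent one had 0.0202 FPKM in females and 0.113 FPKM in males. The plot of levels by gene shows the wide spread within each class.

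**Figure D2:**
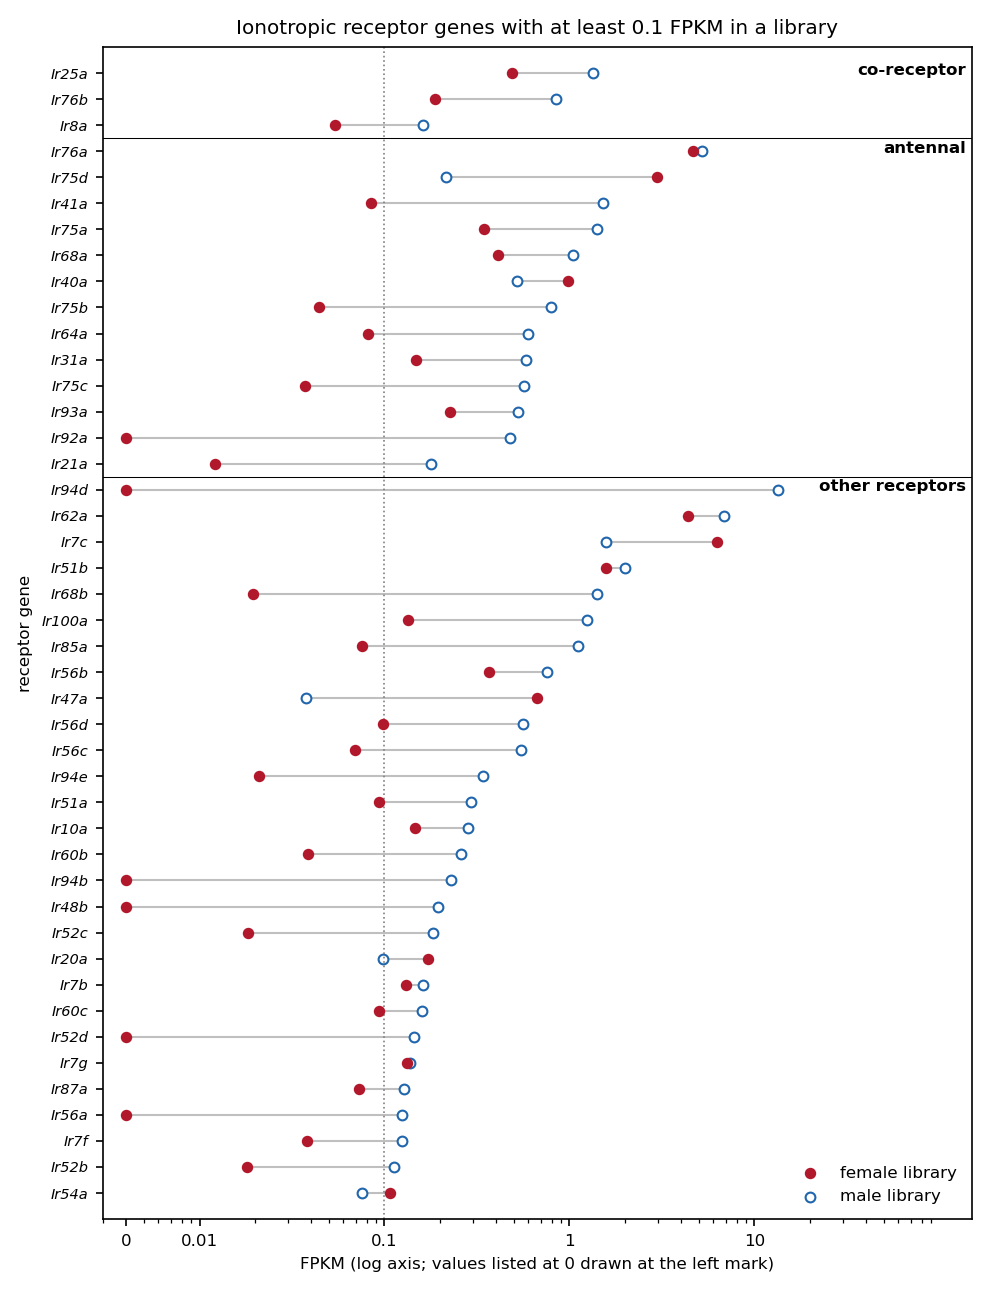
Level (horizontal axis, FPKM, log axis) of the 44 ionotropic receptor genes with at least 0.1 FPKM in a library, by class, in females (filled red points) and the male library (open blue points), with a grey line joining the values of each gene. The dotted line marks 0.1 FPKM, and values listed at 0 are drawn at the left mark. For 38 of the 44 genes the female point lies left of the male point on the values as deposited. The exceptions are Ir75d, Ir7c, Ir47a, Ir40a, Ir20a and Ir54a. Of all 17937 loci with at least 0.1 FPKM in a library, 11640 were lower in females. After scaling to neuronal markers, not drawn, 15 of the 31 receptors that still passed the minimum were lower in females.

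Among antennal receptors for acids, Ir75a, which responds to acetic acid, was the highest in males. It had 0.347 FPKM in females and 1.41 FPKM in males (log2 ratio −1.75). Ir75b, known for butyric acid, had 0.0442 and 0.795 FPKM in females and males (−2.63), and Ir75c, known for propionic acid, had 0.0371 and 0.568 FPKM in females and males (−2.29). These 3 neighbours on 3L were thus lower in females, also with neuronal markers set equal (−0.22 for Ir75a, −1.23 for Ir75b and −0.98 for Ir75c). The deposited annotation adds an assembled isoform of Ir75a that covers all 1818 nt of Ir75b, so the division of fragments between Ir75a and Ir75b is uncertain. Ir64a, an acid sensor of the antennal sacculus, had 0.0815 FPKM in females and 0.596 FPKM in males (−1.94). Ir31a, known for 2-oxopentanoic acid, had 0.148 and 0.584 FPKM in females and males (−1.46). Ir84a, which senses aromatic food odours and is known for its part in male courtship, stayed below 0.1 FPKM in both libraries, at 0.00892 FPKM in females and 0.0923 FPKM in males.

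Antennal receptors for amines differed among themselves. Ir76a, known for phenylethylamine, was the highest antennal receptor, at 4.67 FPKM in females and 5.23 FPKM in males (log2 ratio −0.16). Its direction depended on scaling, with a ratio of 0.33 with equal FPKM sums, −1.13 with ribosomal protein genes set equal and 1.52 with neuronal markers set equal. It shares 297 nt of exon with CG14102 on the opposite strand, which had 8.45 FPKM in females and 2.73 FPKM in males. Ir41a, known for polyamines, had 0.0846 FPKM in females and 1.52 FPKM in males (−3.13). It shares 151 nt with CG44102 on the opposite strand, which was also lower in females, at 1.37 FPKM against 21.5 FPKM in males. Ir92a, the ammonia receptor, was listed at 0 in females and at 0.474 FPKM in males, and overlaps no other locus.

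Apart from Ir75d, the only antennal receptor higher in females as deposited was one for humidity. Ir40a, which serves the sensing of dry air, had 0.985 FPKM in females and 0.521 FPKM in males (log2 ratio 0.80), under the 2-fold threshold as deposited. Its ratio was 1.22 with equal FPKM sums and 2.09 with neuronal markers set equal, both past 2-fold, and turned to −0.06 with ribosomal protein genes set equal. Ir68a, which serves the sensing of moist air, had 0.413 and 1.04 FPKM in females and males (−1.16). Ir93a, needed with Ir25a for both cooling and humidity, had 0.226 and 0.530 FPKM in females and males (−0.95). With neuronal markers set equal, Ir68a turned to 0.32 and Ir93a to 0.34. Ir21a, the cooling receptor, had 0.0121 FPKM in females and 0.178 FPKM in males (−1.31). It shares 2087 nt, or 79.4% of its exons, with the antisense RNA gene CR43609, which had 0.403 FPKM in females and 2.14 FPKM in males.

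More receptors were lower than higher in females as deposited. After scaling to neuronal markers this held only narrowly for the same genes, and not for the 31 that still passed the minimum. Of the 44 genes with at least 0.1 FPKM in a library, 3 were at least 2-fold higher in females and 25 at least 2-fold higher in males, on the log2 scale given above. Over all 17937 loci that passed the same minimum, 19.6% were higher in females and 48.5% in males, so the male share of the receptors, 56.8%, was near that of all loci, while their female share was 6.82%. Of the 25 genes, 6 were listed at 0 in females. The median log2 ratio of the 44 receptors was −1.21, against −0.92 over all loci. It was −0.99 over the 38 receptors listed above 0 in both libraries, a choice made after seeing the data. With neuronal markers set equal, the 31 receptors that still passed the minimum had a median of 0.25. The minimum was applied again after scaling, so this is not the median of the same 44 genes. Genes that reached the minimum through the male library alone had to be higher there, so these counts describe the libraries and give no support of their own.

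Neuronal markers were lower in females too. All 9 of 9 broad neuronal genes were at least 2-fold higher in males, with a summed level of 76.4 FPKM in females and 259 FPKM in males and none at 0. The highest were n-syb, Syt1, brp and Rdl, with 26.1, 22.9, 5.41 and 4.07 FPKM in females and 95.3, 75.1, 15.7 and 15.0 FPKM in males. The log2 ratios of the list ran from −1.87 to −1.34 with a median of −1.72. Their part in the receptors' ratios was not tested. When the male library was scaled so that the median neuronal marker was equal, an alternative chosen after seeing the data, 31 receptors passed the minimum, with 8 (25.8%) at least 2-fold higher in females and 7 (22.6%) in males. Over all loci the same scaling gave 46.1% in females and 24.5% in males, with a median of 0.76. Of the 31 receptors, 10 turned from lower to higher in females, namely Ir10a, Ir25a, Ir51b, Ir56b, Ir62a, Ir68a, Ir76a, Ir7b, Ir7g and Ir93a. The 8 genes past 2-fold were Ir75d, Ir7c, Ir47a, Ir40a, Ir76a, Ir51b, Ir20a and Ir62a, and the 7 were Ir94d, Ir68b, Ir41a, Ir85a, Ir92a, Ir75b and Ir100a.

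**Figure D3:**
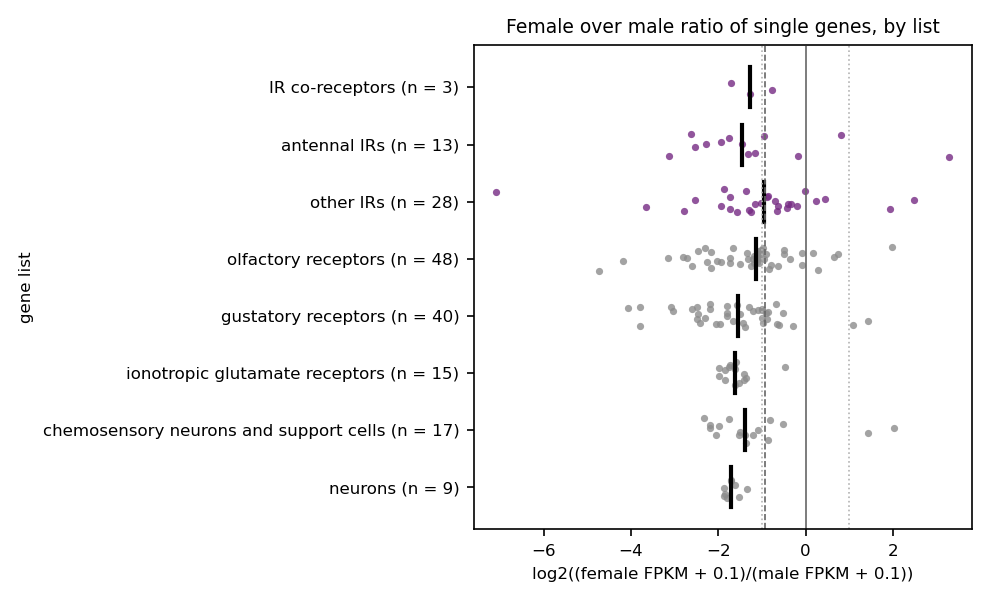
Log2 ratio of female over male level (horizontal axis, 0.1 FPKM added to each value) of single genes (points), for genes with at least 0.1 FPKM in a library, by list. Black bars mark medians, the dashed line the median of all loci (−0.92), and dotted lines 2-fold. Medians lie at −1.28 for the co-receptors, −1.46 for antennal and −0.95 for divergent receptors and −1.72 for neurons on the values as deposited. The receptors spread more widely than the neuronal markers. All neuronal markers had at least 2.40 FPKM in each library, while most receptors lie where few fragments decide a value and some points rest on a listed 0. Scaling to the neuronal markers, not drawn, moves points with a male value above 0 toward the female side. The 31 receptors that then still pass the minimum have a median of 0.25, which is not the median of the receptors drawn.

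The related lists were also lower in females as deposited. With neuronal markers set equal, their medians were taken over the genes that still passed the minimum. These medians were 0.02 for 15 ionotropic glutamate receptors, 0.10 for 32 olfactory receptors and 0.17 for 16 genes of the chemosensory list. The 30 gustatory receptors stayed at −0.43. Of 15 genes on the list of ionotropic glutamate receptors, the relatives that act at synapses, 0 were at least 2-fold higher in females and 14 in males. Their median log2 ratio was −1.63, and the highest were CG11155 (16.6 FPKM in females and 44.5 FPKM in males), GluClalpha (9.41 FPKM in females and 37.3 FPKM in males), clumsy (3.19 FPKM in females and 10.8 FPKM in males) and CG5621 (2.91 FPKM in females and 9.06 FPKM in males). GluClalpha is a glutamate-gated chloride channel of another family and was on the list. Of 60 olfactory receptors 48 passed the minimum, 1 of them at least 2-fold higher in females and 32 in males (median −1.13). For 60 gustatory receptors 40 passed, with 2 at least 2-fold higher in females and 28 in males (median −1.54). On the list of 17 genes of chemosensory neurons and their support cells, 2 were 2-fold higher in females and 12 in males. The 2 were ppk29 (log2 ratio 2.03) and Gr43a (1.43). Gr43a, Gr21a, Gr5a, Gr63a, Gr64f and Gr66a of this list are also counted among the gustatory receptors. The highest genes of the list were Obp19d, Obp83b, Obp83a and Obp28a, with 98.4, 13.8, 10.1 and 5.90 FPKM in females and 334, 63.5, 40.2 and 17.1 FPKM in males. The summed level of all 17 was 146 FPKM in females and 503 FPKM in males, mostly from Obp19d, with no gene at 0. The shared olfactory co-receptor Orco had 1.90 and 4.54 FPKM in females and males, above every ionotropic co-receptor. These lists share the libraries with the receptors, and none of the differences between lists was tested.

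Ir7c, Ir75d and Ir47a were the receptors at least 2-fold higher in females. Ir7c, known from taste neurons that respond to high salt, had 6.28 FPKM in females and 1.57 FPKM in males, a log2 ratio of 1.94. It was the highest receptor of the female library. Ir7c lies on X from 7768148 to 7770934, and its exons overlap no other locus. CR43615, 474 nt away on the same strand, had 25.3 FPKM in females and 3.00 FPKM in males. The other 6 genes of the Ir7 group, among them the acid-taste receptor Ir7a, had at most 0.133 FPKM in females and 0.162 FPKM in males.

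Ir75d, an antennal receptor known for pyrrolidine, had 2.98 FPKM in females and 0.214 FPKM in males, a log2 ratio of 3.29. It lies on 3L from 18901360 to 18904282, apart from Ir75a, Ir75b and Ir75c. CG14077 on the same strand shares 2098 nt with it, which is 90.7% of the exons of Ir75d. CG14077 had 0.0211 FPKM in females and 75.8 FPKM in males, so the male value of Ir75d depends on how fragments were divided between these models. On the opposite strand CG6841 shares 505 nt and was higher in females, at 15.6 FPKM against 6.48 FPKM in males. Ir47a, the third gene, had 0.669 FPKM in females and 0.0378 FPKM in males (2.48). It lies within an intron of CG42732 on the same strand, which had 14.8 FPKM in females and 7.09 FPKM in males, and shares 413 nt with the pseudogene Ir47b, listed at 0 in both libraries. Without genes that share exon sequence with another locus, Ir7c alone remained of the 3. Ir7c has 4 transcript models, 2 of them assembled beyond the reference. Among receptors with 1 transcript model, Ir75d and Ir47a remained and Ir7c did not.

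Ir94d was the highest receptor of either library, at 13.4 FPKM in males, and was listed at 0 in females. It lies on 3R from 19228530 to 19230861. CG17380 on the opposite strand covers 429 nt of it, 24.1% of its exons, and had 0.0147 FPKM in females and 20.6 FPKM in males. Without knowledge of strand, fragments in the shared stretch cannot be assigned to either gene. Ir94e, 369 nt downstream and known from taste neurons of the mouthparts, had 0.0209 FPKM in females and 0.342 FPKM in males (log2 ratio −1.87). Ir94b was listed at 0 in females and at 0.230 FPKM in males. The other 5 genes of the Ir94 group stayed below 0.1 FPKM in both libraries, with Ir94g and Ir94h listed at 0 in both.

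Ir68b, Ir85a and Ir100a followed Ir94d among the divergent receptors with the lowest ratios of female over male. Ir68b had 0.0194 FPKM in females and 1.41 FPKM in males (log2 ratio −3.66), the lowest ratio among receptors listed above 0 in both. Its exons overlap no other locus, and CG34241, 584 nt away on the other strand, had 0.0355 FPKM in females and 175 FPKM in males. Ir85a had 0.0754 and 1.11 FPKM in females and males (−2.79). It lies in an intron of Pif1A and Pif1B, which had 44.6 and 8.76 FPKM in females and 172 and 126 FPKM in males. Ir100a had 0.134 and 1.25 FPKM in females and males (−2.53), while its host CG42233 went the other way with 9.75 FPKM in females and 3.89 FPKM in males. The part of host-gene RNA in these values was not tested.

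**Figure D4:**
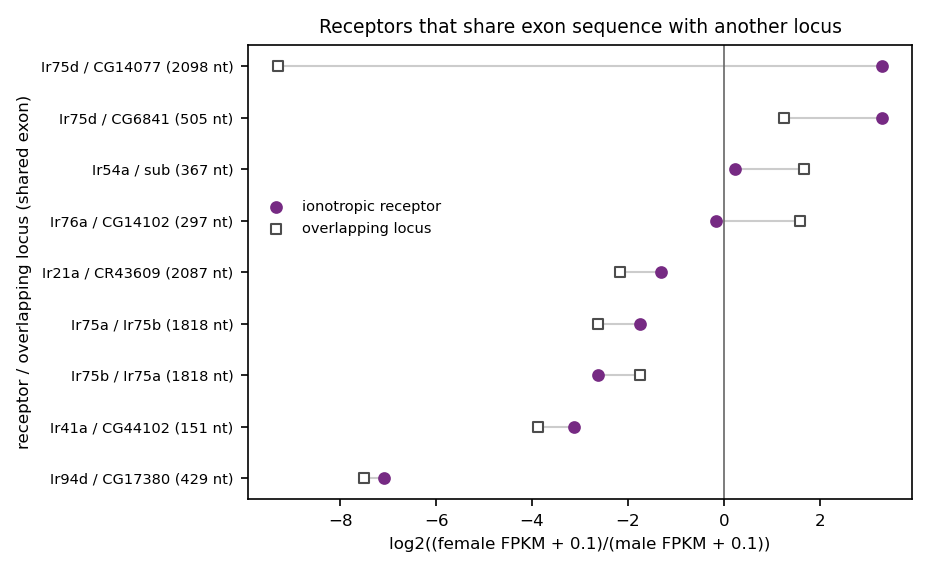
Log2 ratio of female over male level (horizontal axis, 0.1 FPKM added to each value) of receptors with at least 0.1 FPKM in a library that share exon sequence with another locus (purple points), joined to the ratio of that locus (open squares), with the shared length in nt beside the names. Pairs in which the other locus is listed at 0 in both libraries are left out, and the point of Ir94d rests on a listed 0 in females. Ir75d (3.29) and CG14077 (−9.29) are the farthest apart, and Ir94d and CG17380 lie close together on the male side.

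Among the divergent receptors within 2-fold, Ir62a and Ir51b were the highest. Ir62a, known for the avoidance of calcium, had 4.36 FPKM in females and 6.88 FPKM in males (log2 ratio −0.65). It lies in an intron of CG12090 on the same strand, which had 20.1 FPKM in females and 26.3 FPKM in males. Ir51b had 1.57 and 1.999 FPKM in females and males (−0.33), and lies in an intron of row, which had 46.6 FPKM in females and 11.9 FPKM in males. The neighbouring pseudogene Ir51a had 0.0933 FPKM in females and 0.295 FPKM in males (−1.03). Ir10a had 0.146 and 0.281 FPKM in females and males (−0.63).

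The Ir56 and Ir60 groups hold several taste receptors. Ir56b, known for the taste of salt, had 0.366 FPKM in females and 0.757 FPKM in males (log2 ratio −0.88). Its neighbours were lower in females by more than 2-fold. Ir56c had 0.0689 and 0.546 FPKM in females and males (−1.93). Ir56d, known for the taste of fatty acids, had 0.0986 and 0.563 FPKM in females and males (−1.74). Ir56a was listed at 0 in females and at 0.125 FPKM in males. Ir60b, known from pharyngeal neurons that limit sugar intake, had 0.0384 FPKM in females and 0.259 FPKM in males (−1.37). The other 5 genes of the Ir60 group, 2 of them pseudogenes, stayed between 0 and 0.0936 FPKM in females and between 0.0256 and 0.159 FPKM in males.

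The Ir52 genes, known from taste neurons of the legs, include receptors with a part in male courtship. Ir52c had 0.0182 FPKM in females and 0.183 FPKM in males (log2 ratio −1.26), and Ir52d was listed at 0 in females and at 0.145 FPKM in males. Ir52a was at 0 and 0.0943 FPKM in females and males, and Ir52b at 0.0180 and 0.113 FPKM. All 4 neighbours were thus under 0.02 FPKM in females, and their summed level was 0.0363 FPKM there and 0.535 FPKM in males. With neuronal markers set equal, none of the 4 reached the minimum in either library. The Ir48 gene Ir48b was listed at 0 in females and at 0.195 FPKM in males. The 3 Ir67 genes were listed at 0 in females and at up to 0.0401 FPKM in males.

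The remaining genes that passed the minimum were low in both libraries. In all, 8 genes passed it without being among the 30 highest receptors, the co-receptors or the 2-fold differences, among them Ir20a, known for the taste of amino acids. Their values ran from 0.0180 to 0.171 FPKM in females and from 0.0757 to 0.162 FPKM in males. The 22 genes below the minimum had at most 0.0776 FPKM in females and 0.0943 FPKM in males.

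Receptors on X and on the autosomes were set side by side. Of the 11 X-linked genes 7 passed the minimum, with 1 at least 2-fold higher in females and 0 in males. Their median log2 ratio was −0.19. It was 0.18 over 6 genes with equal FPKM sums and 0.73 over 5 genes with neuronal markers set equal. Of the 55 autosomal genes 37 passed, with 2 at least 2-fold higher in females and 25 in males, and a median of −1.31. It was −1.03 over 34 genes with equal FPKM sums and −0.25 over 26 genes with neuronal markers set equal. As deposited, the medians of all loci were −0.32 on X and −1.02 on the autosomes. Among all loci, 27.7% of those on X and 18.3% of those on the autosomes were at least 2-fold higher in females, and 36.8% and 50.5% in males. With 7 genes on X, 4 of them in the Ir7 group, the difference was not tested.

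Gene structure differed by class. The 3 co-receptors had 5 to 10 exons in the model with most exons and the 14 antennal receptors 4 to 11, whereas the 49 divergent receptors had 1 to 4, and 33 of these had a single exon. In the female library 6 of the 33 single-exon genes reached 0.1 FPKM, and 14 of the 33 genes with several exons. The male library gave 14 and 27. Assembled isoforms beyond the reference, 18 in all, were added by the authors' annotation to 8 receptors, 6 of them antennal. Among the 6 pseudogenes none reached 0.1 FPKM in females and 2 did in males, and the highest pseudogene value was the 0.295 FPKM of Ir51a.

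Exon sequence was shared with another locus by 14 of the 66 receptors, and 23 overlapped another locus in span. Of the 14, 9 passed the minimum, with 2 at least 2-fold higher in females and 5 in males. Among the 52 receptors with no shared exon, 35 passed, with 1 at least 2-fold higher in females and 20 in males (median −1.17). Among the 43 that overlap nothing at all, 27 passed, with 1 and 16 in the female and male direction (median −1.28).

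Markers of the reproductive organs differed between the libraries. Of 16 testis and sperm genes, 15 were at least 2-fold higher in males, and CycB3, which ovaries also express, in females. Their median log2 ratio was −8.38, and the smallest difference was that of mia (−1.64). The highest were Mst87F, Mst84Db, ocn and Mst98Ca. The summed level of the list was 157 FPKM in females and 5505 FPKM in males. The 9 accessory gland and ejaculatory duct genes, of which Dup99B, Acp70A, Acp36DE and Acp63F were the highest, summed to 4.97 FPKM in females and 10440 FPKM in males, and all 9 were at least 2-fold higher in males. Ovary, eggshell and yolk genes, 13 in number and led by dhd, Yp1, Yp3 and Yp2, summed to 17353 FPKM in females and 677 FPKM in males. Of these, 12 were at least 2-fold higher in females, with grk (19.3 FPKM in females and 14.7 FPKM in males) the exception. No gene of these 3 lists was at 0 in either library, and their part in the receptors' ratios was not tested.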

How the data were processed

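Per the labels' protocols, TruSeq libraries of pooled whole-body RNA, 1 per sex, were sequenced in 1 lane as paired reads of 100 nt. The authors deposited FPKM per locus and an annotation of transcript models. TopHat2 2.0.8, Cufflinks 2.0.2 and build BDGP5 are named in the submitters' processing notes, without roles, and filters and strand are not given in the sources used here. Coordinates are those of the deposited annotation, counted from 1, and served for lengths and overlaps. FPKM columns summed to 669223 in the female and 951735 in the male library. Of 19470 annotated loci, 79 had no row and were not used here.

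Depth is not given with FPKM. Among loci with 1 transcript of 1500 to 2000 nt, FPKM was multiplied by length in kilobases. Within a low window of these products, set by hand, 28 loci of the female library had a median of 0.0137. In the male library 3 loci fell in the same window. Products outside the window were left out. If 0.0137 is 1 fragment, 0.1 FPKM is about 13.3 fragments for the median receptor of 1816.5 nt in females. Single values near this level are therefore imprecise, and no intervals on them are given.

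The measure was log2((female FPKM + 0.1)/(male FPKM + 0.1)) for loci with at least 0.1 FPKM in a library, called at 2-fold. With 1 library per sex no test was made. The calling step was tested on simulated data with known fold changes, which checks its arithmetic and not the libraries. Members, lists and settings were chosen with earlier results of these data known. Values are given for the co-receptors, the 30 highest receptors with at least 0.1 FPKM and all with a 2-fold difference, 36 genes in all, and for others to complete gene groups or exceptions. For the latter, and for genes near or around receptors, the choice was made after the values were seen. Of the other lists the 4 genes with the highest value were named. Python 3.11.15, numpy 2.4.6, pandas 2.3.3 and matplotlib 3.10.9 were used.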

Additional observations from a re-analysis of the deposited data

How the results depend on the processing

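The number of receptors at least 2-fold higher in males depended on how low values were treated, on the threshold and on scaling. Against 25 of 44 as reported, it was 3 of 44 with a pseudocount of 1 FPKM, 30 of 44 with 0.01 FPKM and 8 of 44 at 4-fold. It was 8 of 13 with at least 1 FPKM in 1 library and 6 of 17 with at least 0.1 FPKM in both. The share of all loci was not taken at these settings, so these counts have no background beside them. With equal FPKM sums the number was 20 of 40 (50%, against 39.0% of all loci). With ribosomal protein genes set equal it was 40 of 52 (76.9%, against 63.8% of all loci). With neuronal markers set equal, an alternative added after seeing the data, it was 7 of 31 (22.6%, against 24.5% of all loci). The number at least 2-fold higher in females, 3 of 44 as reported, was 8 of 31 under the neuronal scaling (25.8%, against 46.1% of all loci). Without receptors that share exon sequence, this number was 1 of 35. It stayed between 2 and 4 under the other alternatives. The median log2 ratio of −1.21 was −0.27 with a pseudocount of 1 FPKM, −1.95 with 0.01 FPKM, −0.73 with no filter, −0.65 with 0.1 FPKM in both libraries and −1.78 with ribosomal protein genes set equal. It was 0.25 with neuronal markers set equal, over the 31 receptors that passed the minimum after scaling and not the same 44. Of these 31, 10 turned to higher in females. Ir25a (0.25) and Ir68a (0.32) were among them, and were past 2-fold in the other direction as deposited. With equal sums 4 of 40 turned to higher in females, and with equal ribosomal protein genes 3 of 44 turned to lower. Receptors detected in females, 20 as reported, were 5 at 1 FPKM, 45 at 0.01 FPKM, 46 above 0 and 11 among the 55 with 1 transcript model. Those detected in males, 41 as reported, were 12 at 1 FPKM, 58 at 0.01 FPKM, 59 above 0 and 30 among these 55. With the male library scaled, 36 were detected in males with equal sums and 51 with equal ribosomal protein genes.

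Scaling moved the median of all loci from −0.92 to −0.47 with equal sums, −1.79 with equal ribosomal protein genes and 0.76 with equal neuronal markers. The receptors had −0.98, −1.78 and 0.25 under the same 3 scalings, over the 40, 52 and 31 receptors that passed the minimum after each. Of the receptors 2-fold apart, the share higher in females was 10.7% as deposited, 16.7% with equal sums, 6.98% with equal ribosomal protein genes and 53.3% with equal neuronal markers. Over all loci that share was 28.8%, 41.0%, 11.7% and 65.3% in the same order. Leaving out pseudogenes or receptors listed at 0 in a library, also chosen after seeing the data, changed no count by more than 1.5 times. No paired analysis was possible because each sex had 1 library. Most receptors lie where few fragments decide a value, and unequal shares of tissue in whole flies cannot be told apart from unequal levels.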
